A study of Mus musculus with 1989 samples.

Results

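The genes described here encode the enzymes that write and remove marks on histones and DNA and the motors that move nucleosomes, as measured in developing T cells of the mouse thymus. They were chosen by symbol alone, as every gene in the expression table whose symbol starts with Kmt2, Kmt5, Kdm, Hdac, Sirt, Smarc, Dnmt or Ezh, or with Tet, Kat or Chd and a number. This rule took 73 of 8846 genes. The thymus cells came from male C57BL/6 mice, an inbred laboratory strain, with an age of 7 weeks in the labels. Neither a transgene nor a treatment is stated. Expression was measured in 1993 cells of 1 droplet 3′ library of whole thymus. Chromatin accessibility was measured by scATAC-seq in cells sorted as DN (182 cells), DP (125 cells), CD4 (119 cells) and CD8 (116 cells). Since the labels tie no cell to an animal, each class of cells and each sort is 1 sample, and no test between them was possible. Every interval below is a 95% interval that covers counting error only. One of the 73 genes, Chd3os, is an antisense RNA that the rule picked up by its symbol and is not an enzyme. How reads over Chd3 and Chd3os were told apart is not given in the sources used here, so the values of both carry that uncertainty. The same holds for Kdm5c and Kdm5d, a pair of closely related genes of the X and Y chromosomes.

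As background, T cell precursors pass through the thymus in a fixed order. Double-negative (DN) cells that lack CD4 and CD8 rearrange the TCRβ gene, pass through a brief immature single-positive (ISP) stage and divide rapidly as double-positive blasts (DPbla). They then leave the cell cycle, rearrange the TCRα gene (DPre), are selected on self peptides (DPsel) and mature into CD4 or CD8 single-positive cells (CD4sp and CD8sp). Chromatin enzymes act throughout this path. Methyltransferases of the Kmt2 group mark active promoters and enhancers on H3K4, and Ezh enzymes of Polycomb repressive complex PRC2 place the repressive H3K27 mark. Hdac and Sirt enzymes remove acetyl groups that Kat enzymes add, and Kdm enzymes remove methyl groups from histones. Dnmt and Tet enzymes write and oxidize methylcytosine, and the SWI/SNF, ISWI and Chd remodelers slide or evict nucleosomes with the energy of ATP.

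Cells were clustered without the 73 genes and without the other chromatin genes named below, and clusters were named from marker genes. This gave 7 thymocyte classes of 78 (DN-like), 193 (ISP-like), 345 (DPbla-like), 495 (DPre-like), 319 (DPsel-like), 163 (CD4sp-like) and 150 cells (CD8sp-like). It also gave 31 nonconventional lymphocyte-like (NCL-like) cells, 37 antigen-presenting cell-like (APC-like) cells and 182 cells in 2 clusters left unnamed. The size of the ISP-like class depended on the settings, with 98 cells when 20 neighbors were used or the members were kept in clustering, 300 at resolution 1 and 307 with no margin in naming. At resolution 1 the CD4sp-like class held 355 cells and the CD8sp-like class 0. Not every marker of a class was highest in it. Among the 7 thymocyte classes this held for 3 of 4 markers (DN), 2 of 6 (ISP), 3 of 6 (DPbla), 6 of 7 (DPre), 6 of 6 (DPsel), 4 of 6 (CD4sp) and 1 of 6 (CD8sp), where the 1 was Runx3, the CD8 lineage factor. The level of Il2ra, a receptor chain of DN cells, was 6.90 in DN-like cells and at most 0.261 in the other thymocyte classes. Rag1, the recombinase, reached 12.0 in DPre-like cells. Here a level is the sum over the cells of a class of each value's rank among the distinct values of its cell, a stand-in for molecules that is called a step, per 10000 summed steps of all genes. A 3′ library yields 1 tag per molecule, and levels were not scaled by gene length. Where the levels of all 7 thymocyte classes are given, the class stands in brackets after its level without the ending. The classes differed in depth, with a median per cell of 3633 (DN), 9449 (ISP), 5263 (DPbla), 2002 (DPre), 1973 (DPsel), 2176 (CD4sp) and 2413 steps (CD8sp). Shares of cells are therefore given after thinning each cell to 1300 steps. The 73 genes took 0.597% of all steps, and 71.6% of their values above 0 were a single step. Most members can be compared between classes but not between single cells. As a measure of free RNA, H2-Aa, an antigen-presentation gene that thymocytes should lack, was detected in 4.66% to 9.70% of thinned cells of the thymocyte classes and in 83.8% of APC-like cells. Other APC markers gave other limits. Their highest share in a thymocyte class was 10.9% for H2-Eb1, 15.0% for H2-Ab1, 19.0% for Cd74, 41.0% for Cst3 and 1.41% for Cd79a. The counts that follow use H2-Aa alone, and a higher limit could leave fewer members above it. In all 7 thymocyte classes 30 of the 73 members had a share at or under 9.70%, which by itself cannot be told apart from background, and 43 members exceeded it in at least 1 class. Those 30 include Ezh1, Dnmt3b, Tet1, Tet2, Chd7, Chd3os, Kat2a, Kat5, Kat6b, Kat14, Sirt1, Sirt3, Sirt6, Hdac8, Hdac10, Smarcc2, Kdm2b, Kdm3a, Kdm4c and Kdm6a, whose values below are to be read with that limit. The rest of the 30, not listed here, carry the same limit.

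The members together had a level of 70.4 (DN), 56.4 (ISP), 61.6 (DPbla), 62.2 (DPre), 63.4 (DPsel), 59.5 (CD4sp) and 55.1 (CD8sp). Their total was thus highest in DN-like cells, and the single genes behind it were spread over the whole path. Among the 68 members with at least 100 steps, 19 were highest in the DN-like class, 7 in ISP-like cells, 6 in DPbla-like cells, 13 in the DPre-like class, 9 in the DPsel-like class, and 11 and 3 in the CD4sp-like and the CD8sp-like class. In percent, the members peaked at 27.9% (DN), 10.3% (ISP), 8.82% (DPbla), 19.1% (DPre), 13.2% (DPsel), 16.2% (CD4sp) and 4.41% (CD8sp). Of the 7380 genes with as many steps the shares were 18.9% (DN), 16.6% (ISP), 11.7% (DPbla), 16.9% (DPre), 13.8% (DPsel), 13.4% (CD4sp) and 8.73% (CD8sp).

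**Figure D1:**
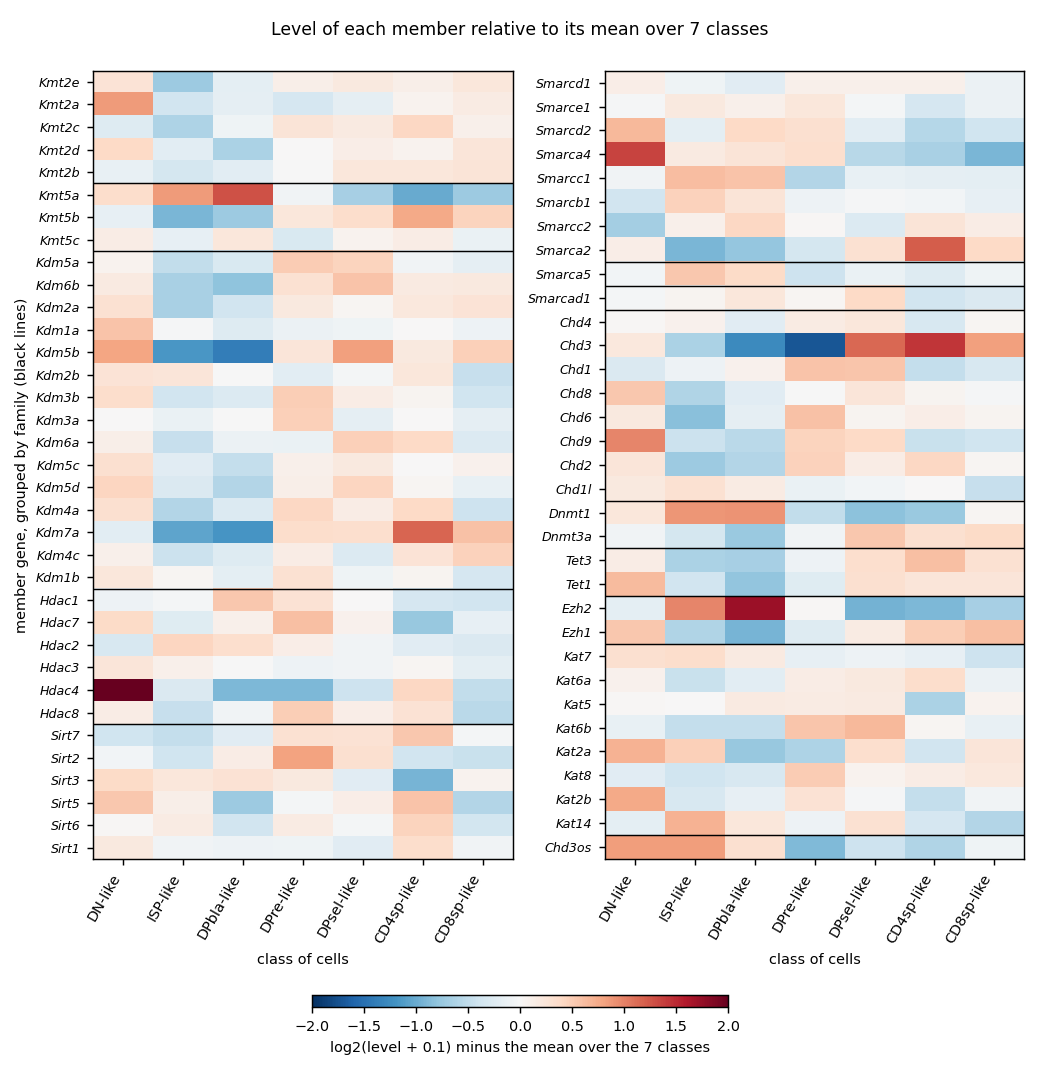
Heat map of the members with at least 100 steps (rows, grouped by family) over the 7 thymocyte classes (columns), where color is log2 of the level plus 0.1 minus its mean over the classes, with the scale ending at 2.0 in either direction. Ezh2 and Kmt5a are high in the ISP-like and DPbla-like columns, most Kdm genes are low there, and Hdac4 stands out in the DN-like column.

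The windows before the start sites of 3 members are shown because they stand for 3 patterns in the expression data. Ezh2 was highest in the dividing DPbla-like cells, Kdm5b was lowest there, and Kat2a, which like Ezh2 carries an E2F word, was low in the same cells. E2F factors drive genes of DNA replication, and their words were searched as TTTCCCGC, TTTCGCGC, TTTGCCGC and TTTGGCGC on both strands. The windows run from 250 bases before to 30 bases after the start, 5′ to 3′ on the strand of the gene, from RefSeq on GRCm38.p6, with an E2F word in capitals where there is one: Ezh2 at chr6:47595001-47595280 (minus strand), Kat2a at chr11:100712438-100712717 (minus strand) and Kdm5b at chr1:134559928-134560207 (plus strand).
Ezh2: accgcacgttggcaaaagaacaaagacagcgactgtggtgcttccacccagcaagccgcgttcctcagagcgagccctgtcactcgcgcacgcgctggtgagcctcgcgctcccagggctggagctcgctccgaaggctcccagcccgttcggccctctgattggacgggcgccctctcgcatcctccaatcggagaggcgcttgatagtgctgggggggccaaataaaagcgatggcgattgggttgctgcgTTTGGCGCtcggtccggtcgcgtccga
Kat2a: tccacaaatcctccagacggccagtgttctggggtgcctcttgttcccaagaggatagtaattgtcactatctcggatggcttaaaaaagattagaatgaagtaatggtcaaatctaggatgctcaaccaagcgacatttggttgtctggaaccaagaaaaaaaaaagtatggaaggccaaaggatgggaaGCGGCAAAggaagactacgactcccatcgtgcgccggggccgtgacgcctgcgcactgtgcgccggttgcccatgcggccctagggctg
Kdm5b: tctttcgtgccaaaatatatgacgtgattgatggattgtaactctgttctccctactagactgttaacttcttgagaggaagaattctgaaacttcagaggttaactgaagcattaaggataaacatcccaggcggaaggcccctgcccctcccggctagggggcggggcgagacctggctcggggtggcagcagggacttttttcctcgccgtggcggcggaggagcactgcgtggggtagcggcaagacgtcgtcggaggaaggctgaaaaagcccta
The word of Ezh2, TTTGGCGC, begins at position 4 after the RefSeq start. That of Kat2a, GCGGCAAA, which is TTTGCCGC read on the other strand, begins 59 bases before the start of Kat2a. The span of Ezh2 given below is from GENCODE vM21 and reaches 47595341, upstream of this window on the minus strand. The position of its word therefore depends on the annotation. RefSeq windows of 300 bases were matched for 57 of the 73 members, and 5 of these 57 genes (8.77%), which were Ezh2, Dnmt1, Kmt5c, Kat2a and Smarcd1, had a word in a window. Of the measured genes with a window 5.39% had one, and of all genes in the promoter set 2.60%. A match is a description of letters, and the absence of one in this window says nothing of the factor.

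Ezh2, the catalytic subunit of PRC2 in dividing cells (chromosome 6, 47530139 to 47595341, GRCm38), had a level of 1.99 (DN), 4.58 (ISP), 7.73 (DPbla), 2.34 (DPre), 1.14 (DPsel), 1.18 (CD4sp) and 1.40 (CD8sp). It was highest in DPbla-like cells and lowest in DPsel-like cells. Its interval in DPbla-like cells (7.35 to 8.12) did not overlap that in any other thymocyte class. The level in ISP-like cells was 2.31-fold that in DN-like cells (interval 1.78 to 3.03), DPbla-like cells stood a further 1.69-fold higher (1.55 to 1.84), DPre-like cells were 3.31-fold lower (2.90 to 3.78) and DPsel-like cells 2.06-fold lower again (1.59 to 2.69). At equal depth Ezh2 was detected in 66.1% of DPbla-like cells (60.8 to 71.1) and 13.8% of DPsel-like cells (10.2 to 18.1). Its paralog Ezh1, which serves PRC2 mainly in resting cells, went the other way, with 0.410 (DN), 0.133 (ISP), 0.0849 (DPbla), 0.196 (DPre), 0.295 (DPsel), 0.394 (CD4sp) and 0.433 (CD8sp). Ezh1 was thus lowest where Ezh2 was highest, at 3.08-fold lower in ISP-like than in DN-like cells (1.45 to 6.25) and 2.31-fold higher in DPre-like than in DPbla-like cells (1.17 to 4.64). After thinning, however, its log2 ratio of DPbla-like to ISP-like cells turned from -0.65 to 0.75. The 3 genes with the level pattern most like that of Ezh2 over the 7 classes were Cdca3 (Pearson r = 0.998), Hmgn2 (0.996) and Stmn1 (0.994), a description over 7 classes of 1 library.

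Among the DNA methyltransferases, the maintenance enzyme Dnmt1, which copies methylation after replication (chromosome 9, 20907209 to 20959888, GRCm38), had a level of 1.48 (DN), 2.40 (ISP), 2.43 (DPbla), 0.857 (DPre), 0.665 (DPsel), 0.710 (CD4sp) and 1.28 (CD8sp). It was high in the dividing classes, 2.84-fold lower in DPre-like than in DPbla-like cells (2.28 to 3.57), and 1.51-fold higher in single-positive (SP-like) than in DPsel-like cells (1.04 to 2.23). The de novo enzyme Dnmt3a had a level of 0.662 (DN), 0.527 (ISP), 0.380 (DPbla), 0.660 (DPre), 1.06 (DPsel), 0.894 (CD4sp) and 0.938 (CD8sp), highest in DPsel-like cells. Dnmt3b, the other de novo enzyme, was near the limit of detection after the DN-like class, with 14 steps and a level of 0.441 there, then 0.160 (ISP) and 0.025 (DPbla). Of the Tet enzymes, which oxidize methylcytosine, Tet3 was the most abundant, with 0.851 (DN), 0.458 (ISP), 0.445 (DPbla), 0.705 (DPre), 0.989 (DPsel), 1.21 (CD4sp) and 0.962 (CD8sp), lowest in the dividing classes and highest in CD4sp-like cells. Tet1 had a lower level than Tet3 in each thymocyte class, with 0.410 (DN), 0.154 (ISP), 0.0899 (DPbla), 0.178 (DPre), 0.310 (DPsel), 0.289 (CD4sp) and 0.289 (CD8sp), highest in DN-like cells. Tet2 stayed between 0.0481 and 0.421.

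The H4K20 methyltransferase Kmt5a, which places the single methyl group on H4K20 in mitotic and S phase control (chromosome 5, 124439930 to 124462308, GRCm38), had a level of 1.23 (DN), 1.79 (ISP), 2.42 (DPbla), 0.892 (DPre), 0.561 (DPsel), 0.421 (CD4sp) and 0.529 (CD8sp). Kmt5b, which adds further methyl groups to H4K20, had 0.504 (DN), 0.261 (ISP), 0.310 (DPbla), 0.696 (DPre), 0.768 (DPsel), 1.05 (CD4sp) and 0.818 (CD8sp). These family members ran in opposite directions: from DPbla-like to DPre-like cells Kmt5a was 2.71-fold lower (2.18 to 3.40) and Kmt5b 2.25-fold higher (1.59 to 3.19). In the Kmt2 family Kmt2e (Mll5), which is thought to lack H3K4 methyltransferase activity of its own, had the highest level, with 2.40 (DN), 1.14 (ISP), 1.69 (DPbla), 2.14 (DPre), 2.26 (DPsel), 2.13 (CD4sp) and 2.31 (CD8sp). Kmt2a, the H3K4 methyltransferase Mll1 needed for blood formation, had 1.92 (DN), 0.756 (ISP), 0.884 (DPbla), 0.785 (DPre), 0.886 (DPsel), 1.08 (CD4sp) and 1.15 (CD8sp). Kmt2a was 2.54-fold lower in ISP-like than in DN-like cells (1.85 to 3.46) and none of the later steps was past 1.5-fold.

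The Kdm demethylases had a summed level of 10.0 (DN), 5.45 (ISP), 5.36 (DPbla), 9.52 (DPre), 10.1 (DPsel), 9.17 (CD4sp) and 8.16 (CD8sp), so that the family was lowest in the 2 dividing classes, which were also the deepest. Kdm5b, which removes methyl groups from H3K4 (chromosome 1, 134560171 to 134635285, GRCm38), had 1.51 (DN), 0.319 (ISP), 0.260 (DPbla), 1.01 (DPre), 1.55 (DPsel), 0.973 (CD4sp) and 1.2 (CD8sp). Kdm5a of the same group had 1.23 (DN), 0.799 (ISP), 0.924 (DPbla), 1.70 (DPre), 1.62 (DPsel), 1.10 (CD4sp) and 1.01 (CD8sp). Kdm6b, an H3K27 demethylase that opposes Ezh2, had 1.42 (DN), 0.756 (ISP), 0.669 (DPbla), 1.55 (DPre), 1.89 (DPsel), 1.42 (CD4sp) and 1.44 (CD8sp). The related Kdm6a had 0.347 (DN), 0.202 (ISP), 0.280 (DPbla), 0.277 (DPre), 0.473 (DPsel), 0.447 (CD4sp) and 0.241 (CD8sp). Kdm1a, a flavin-dependent H3K4 demethylase, was highest in DN-like cells at 1.17 and stayed between 0.619 and 0.762 in the classes after ISP-like. Kdm7a (chromosome 6, 39136623 to 39206789, GRCm38) was the member with the largest gain from DPbla-like to DPre-like cells. It had 13 steps (DPbla) and 42 (DPre), a level of 0.0649 against 0.375, and a level of 0.736 in CD4sp-like cells.

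Of the zinc-dependent deacetylases, Hdac4, a class IIa enzyme that acts as a signal-controlled corepressor (chromosome 1, 91928779 to 92195699, GRCm38), was concentrated in DN-like cells, with 3.18 (DN), 0.351 (ISP), 0.195 (DPbla), 0.196 (DPre), 0.310 (DPsel), 0.631 (CD4sp) and 0.289 (CD8sp). At equal depth it was detected in 34.6% of DN-like cells (24.2 to 46.2) and 3.63% of ISP-like cells (1.47 to 7.33), the latter under the 4.66% to 9.70% seen for H2-Aa. Hdac7, the class IIa enzyme known for its abundance in double-positive thymocytes, had 2.71 (DN), 1.72 (ISP), 2.23 (DPbla), 3.18 (DPre), 2.19 (DPsel), 1.18 (CD4sp) and 1.83 (CD8sp), with the highest level in DPre-like cells. The class I enzyme Hdac1 was highest in DPbla-like cells, with 1.99 (DN), 2.08 (ISP), 3.16 (DPbla), 2.64 (DPre), 2.16 (DPsel), 1.68 (CD4sp) and 1.61 (CD8sp). Its paralog Hdac2 was highest in ISP-like cells, with 1.36 (DN), 2.35 (ISP), 2.20 (DPbla), 1.91 (DPre), 1.65 (DPsel), 1.47 (CD4sp) and 1.40 (CD8sp). Hdac3, the class I enzyme of the NCoR complexes, had a flat course from 0.770 to 1.07 and was past 1.5-fold in no comparison. Among the NAD-dependent Sirt enzymes, Sirt7 had 0.819 (DN), 0.772 (ISP), 0.934 (DPbla), 1.39 (DPre), 1.37 (DPsel), 1.66 (CD4sp) and 1.08 (CD8sp), the highest level in each thymocyte class but DPre-like, where Sirt2 had 1.45. Sirt1 stayed between 0.162 and 0.289 with no comparison past 1.5-fold.

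The SWI/SNF subunits took the largest share of the members' steps. Smarca4, the Brg1 ATPase of the complex (chromosome 9, 21616169 to 21704230, GRCm38), had 4.07 (DN), 1.75 (ISP), 1.86 (DPbla), 1.98 (DPre), 1.02 (DPsel), 0.946 (CD4sp) and 0.770 (CD8sp). The alternative ATPase Smarca2 (Brm) had 0.567 (DN), 0.224 (ISP), 0.255 (DPbla), 0.375 (DPre), 0.650 (DPsel), 1.31 (CD4sp) and 0.698 (CD8sp). The 2 ATPases ran in opposite directions on the way to the single-positive classes: Smarca4 was 1.94-fold lower in DPsel-like than in DPre-like cells (1.48 to 2.59), Smarca2 was 1.73-fold higher (1.11 to 2.71). Their intervals in CD4sp-like cells were 0.663 to 1.31 for Smarca4 and 0.975 to 1.73 for Smarca2, which overlap. Smarcd1, an accessory subunit, was the flattest of the 68 members with at least 100 steps, with 3.62 (DN), 3.11 (ISP), 2.81 (DPbla), 3.54 (DPre), 3.54 (DPsel), 3.57 (CD4sp) and 3.03 (CD8sp), a highest level 1.29 times its lowest. The core subunits Smarcb1 and Smarcc1 were highest in ISP-like cells, at 1.09 against 0.567 in DN-like cells for Smarcb1 and 2.18 against 1.32 for Smarcc1. Smarce1 stayed between 1.55 and 2.33. The ISWI motor Smarca5 (Snf2h), which spaces nucleosomes, had 1.83 (DN), 2.83 (ISP), 2.52 (DPbla), 1.41 (DPre), 1.74 (DPsel), 1.58 (CD4sp) and 1.80 (CD8sp), also highest in ISP-like cells. Smarcad1, an SNF2 motor linked to replication, was highest in DPsel-like cells at 0.797 and lowest in CD4sp-like cells at 0.421.

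**Figure D2:**
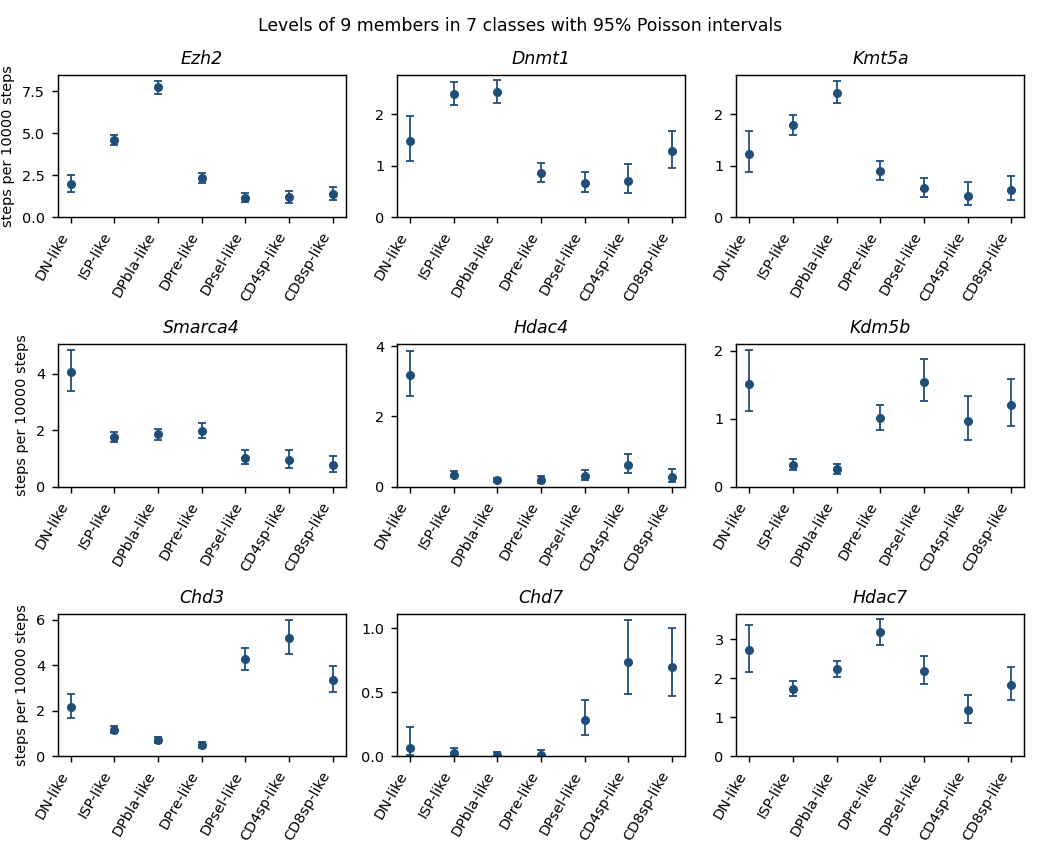
Levels of selected members (steps per 10000, vertical axis) in the 7 thymocyte classes (horizontal axis), with bars for 95% Poisson intervals that cover counting error only. Ezh2 peaks at 7.73 in DPbla-like cells, Hdac4 and Smarca4 are highest in DN-like cells and Chd3 is at or above 3.37 from the DPsel-like class on.

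Among the chromodomain remodelers Chd4, the NuRD motor, had the highest level up to the DPre-like class, and its paralog Chd3 from the DPsel-like class on. Chd4 had 2.68 (DN), 2.83 (ISP), 2.26 (DPbla), 2.99 (DPre), 3.12 (DPsel), 2.10 (CD4sp) and 2.72 (CD8sp) and was past 1.5-fold in no comparison. Chd3 (chromosome 11, 69343273 to 69369406, GRCm38) had 2.17 (DN), 1.16 (ISP), 0.714 (DPbla), 0.50 (DPre), 4.25 (DPsel), 5.20 (CD4sp) and 3.37 (CD8sp). It was lowest in DPre-like cells and 8.51-fold higher in DPsel-like cells (6.37 to 11.5), the largest ratio between successive classes after that of Hdac4 among the members with enough steps. At equal depth it was detected in 5.86% (3.96 to 8.31) and 37.0% (31.7 to 42.5) of the cells. The 2 clusters of the DPsel-like class differed in it: its level was 2.17 (1.70 to 2.72) in the cluster with Ccr7, a homing receptor of mature thymocytes, at 0.147. It was 6.37 (5.54 to 7.28) in the cluster with Ccr7 at 2.50. Cd8b1, a chain of CD8, was 19.2 in the first of these clusters and 6.46 in the second, below the 8.52 of CD4sp-like cells. The ratio of the DPsel-like class therefore also covers cells with low Cd8b1. The genes with the pattern most like Chd3 were Nap1l4 (r = 0.988), Sdhaf4 (0.982) and Il7r (0.981). Chd7, a remodeler of enhancers (chromosome 4, 8690406 to 8867659, GRCm38), was hardly detected before selection, with 2 steps (DPbla) and 1 (DPre). Its level reached 0.281 (DPsel), 0.736 (CD4sp) and 0.698 (CD8sp). With that few steps the ratio of DPsel-like to DPre-like cells was not counted. That of SP-like to DPsel-like cells was 2.55 (1.5 to 4.54).

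The Kat acetyltransferases were low throughout. Kat7, which acetylates histone H3 and H4 around replication origins, had 0.630 (DN), 0.644 (ISP), 0.559 (DPbla), 0.419 (DPre), 0.443 (DPsel), 0.421 (CD4sp) and 0.337 (CD8sp), and held the most steps of the family in the first 3 of these classes. Kat2a, the Gcn5 enzyme of the SAGA complex, had 0.504 (DN), 0.415 (ISP), 0.120 (DPbla), 0.143 (DPre), 0.369 (DPsel), 0.184 (CD4sp) and 0.337 (CD8sp), lowest in the DPbla-like and DPre-like cells. Kat6a (Moz) had 0.599 (DN), 0.383 (ISP), 0.470 (DPbla), 0.625 (DPre), 0.650 (DPsel), 0.736 (CD4sp) and 0.505 (CD8sp), and held the most steps in the last 4. Kat5 (Tip60) stayed between 0.184 and 0.399.

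For each step of the path a member was counted as higher or lower when its level differed at least 1.5-fold and both classes together held at least 30 steps. From DN-like to ISP-like cells 32 of 68 members were lower (47.1%) and 8 were higher (11.8%), where over all genes 26.8% were lower and 19.7% higher. The median log2 ratio was -0.44 over the members and -0.09 over all genes. The ISP-like cells were also the deepest. After thinning to equal depth 22 members had enough steps. Of these 7 were lower and 5 higher, against 20.9% and 29.7% of all genes, with a median of -0.07 against 0.16. The members with the largest ratios were Hdac4, 9.06-fold lower (6.58 to 12.5), Kdm5b, 4.74-fold (3.17 to 7.04), Ezh1, Chd9, 3.03-fold (2.03 to 4.47), and Dnmt3b, 2.76-fold (1.35 to 5.37). On the other side were Kat14, 2.53-fold higher (0.940 to 9.60), Ezh2, Smarcc2, 2.01-fold (0.978 to 4.78), Smarcb1, 1.91-fold (1.18 to 3.30), and Hdac2, 1.74-fold (1.27 to 2.43). The intervals of Kat14 and Smarcc2 include 1. Of the 14 Kdm genes tested 11 were lower and 0 higher, while after thinning 2 could be counted and 1 was lower. With the sum of low-level genes as denominator 8 Kdm genes were lower. Of all members 26 were then lower and 9 higher, against 20.4% and 26.7% of all genes.

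From ISP-like to DPbla-like cells, both dividing, 7 of 70 members were higher and 10 lower, against a background of 13.8% higher and 16.3% lower over all genes, with a median log2 ratio of 0.05 against -0.01. Chd6 (1.72-fold, 1.29 to 2.30), Ezh2, Kmt2c (1.55-fold, 1.16 to 2.09), Hdac8 (1.54-fold, with a log2 ratio of -2.84 after thinning) and Sirt2 (1.53-fold, 1.2 to 1.96) were the largest on the higher side. Dnmt3b (6.39-fold, 2.46 to 21.1), Kat2a (3.46-fold, 2.17 to 5.72), Sirt5 (2.29-fold, 1.5 to 3.58), Hdac4 (1.80-fold, 1.2 to 2.75) and Sirt6 (1.74-fold, 1.11 to 2.78) were the largest on the lower side. After thinning 9 of 34 were higher and 4 lower, against 19.9% and 17.0% of all genes. Without the margin in naming 3 of 71 were higher and 9 lower, against 11.1% and 15.3%.

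From DPbla-like to DPre-like cells 28 of 70 members were higher (40.0%) and 7 lower (10.0%), against 26.8% higher and 14.4% lower over all genes. Mki67 was above 0 in 52.5% of thinned DPbla-like cells and 9.29% of thinned DPre-like cells. In 1 of the 3 DPre-like clusters, of 128 cells, the share was 21.9%, near the 26.9% of ISP-like cells, so the DPre-like class still held dividing cells. Scaling to the sum of genes that never exceed 10 steps gave 22 higher and 10 lower, against 19.5% and 18.3% of all genes. After thinning, 19 of 53 were higher and 6 lower, against 28.3% and 15.6%. The median was 0.40 over the members and 0.22 over all genes. Under that low-gene scaling the median of all genes moved from 0.22 to 0.05 here and from -0.09 to 0.10 in the comparison of ISP-like with DN-like cells. The members on the higher side were led by Kdm7a (5.77-fold, 3.04 to 11.7), Kdm5b (3.88-fold, 2.77 to 5.50), Kat6b (2.49-fold, 1.68 to 3.71), Chd2 (2.34-fold, 1.72 to 3.19) and Kdm6b (2.32-fold, 1.84 to 2.93). On the lower side were Chd3os (7.09-fold, 3 steps in DPre-like cells), Ezh2, Dnmt1, Kmt5a and Smarcc1 (2.36-fold, 1.90 to 2.97). In the Kdm family 12 of 15 members were higher and 0 lower. With the low-gene denominator 9 were higher, and after thinning to equal depth 7 of the 11 with enough steps were. The classes compared also differed in depth, with a median of 5263 against 2002 steps per cell.

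**Figure D3:**
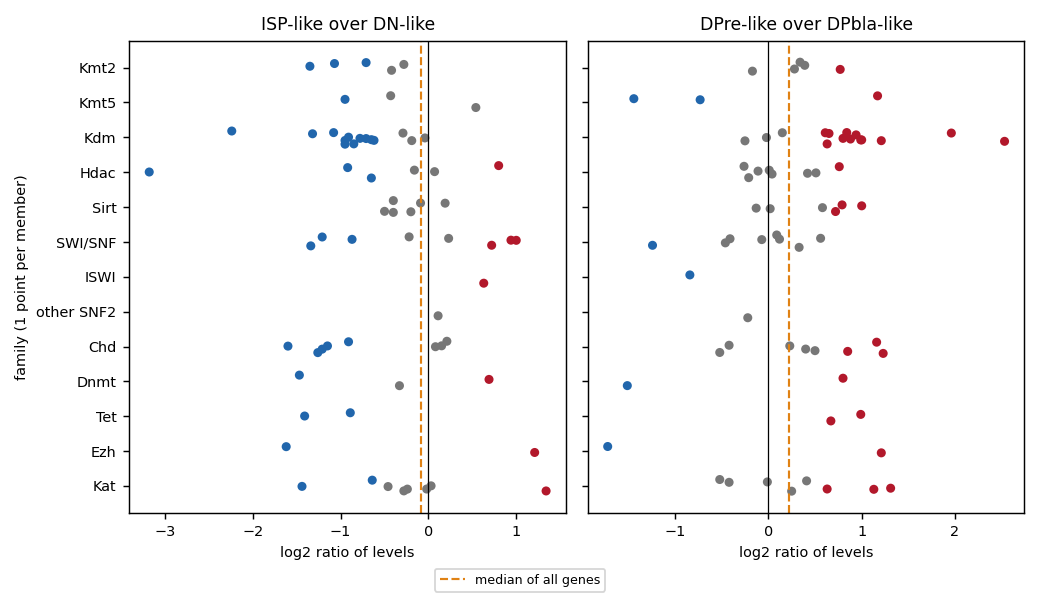
Log2 ratio of levels of each member (1 point each, red for higher and blue for lower past 1.5-fold) by family, for ISP-like over DN-like cells (left) and DPre-like over DPbla-like cells (right), with the median of all genes dashed. Most Kdm points lie to the left of the dashed line on the left and to the right of it on the right.

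Part of the members were called in both comparisons. Of the 32 members lower in ISP-like than in DN-like cells, 19 were also higher in DPre-like than in DPbla-like cells, which is 59.4% of the 32 and 67.9% of the 28, where over all genes the shares were 48.3% and 45.3%. In both comparisons the lower side was the deeper class. After thinning, 21 members had enough steps in both. Of these 6 were lower at the first, 3 were higher at the second and 1, Kdm6b, was both, which is 16.7% of the 6 and 33.3% of the 3, against 46.5% and 53.0% over all genes. The classes of the 2 comparisons are separate sets of cells. Without thinning the 19 genes were Chd2, Chd6, Chd9, Ezh1, Hdac8, Kat2b, Kdm2a, Kdm3b, Kdm4a, Kdm4c, Kdm5a, Kdm5b, Kdm5c, Kdm5d, Kdm6b, Kmt2d, Kmt5b, Tet1 and Tet3, while Dnmt1, Ezh2, Smarca5 and Smarcc1 followed the opposite course. Of the 64 members with enough steps in all 5 successive comparisons 12 were past 1.5-fold in none (18.8%), where 25.8% of all genes were.

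From DPre-like to DPsel-like cells 11 of 69 members were higher and 7 lower, against 13.8% and 15.8% of all genes, and the medians were 0.04 and -0.01. After thinning 3 of 56 were higher and 10 lower, against 14.6% and 15.9% of all genes. With 30 principal components 7 of 66 were higher and 12 lower, against 14.6% and 15.8%. After Chd3 came Kat2a (2.59-fold, 1.33 to 5.18), Hdac10, a polyamine deacetylase (1.77-fold, 0.817 to 3.83), Tet1 (1.74-fold, 0.896 to 3.38) and Smarca2. Lower were Ezh2, Smarca4, Kdm3a (1.78-fold, 1.03 to 3.23), Kmt5a (1.59-fold, 1.08 to 2.38, but a log2 ratio of 0.17 with 30 principal components) and Kdm4c (1.57-fold, 0.733 to 3.65). From DPsel-like to SP-like cells, which are the CD4sp-like and CD8sp-like cells together, 5 of 67 members were higher and 7 lower, against 10.6% and 12.5% of all genes. With the low-gene denominator 8 were higher and 5 lower, against 12.2% and 10.5%. After thinning 4 of 47 were higher and 6 lower, against 10.6% and 13.4%. Besides Chd7 and Dnmt1, Kdm4c (1.96-fold, 0.896 to 4.61), Kdm7a (1.60-fold, 0.964 to 2.71) and Smarca2 (1.53-fold, 1.04 to 2.26) were higher. Chd1, which is linked to open chromatin, was 2.01-fold lower (1.54 to 2.64), Chd9 1.94-fold, Kat6b 1.83-fold, Smarcad1 1.81-fold and Sirt2 1.78-fold.

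Between the 2 mature lineages 46 members had enough steps, of which 6 were higher in the CD4sp-like class and 2 in the CD8sp-like class, against 8.79% and 8.40% of all genes. Higher in CD4sp-like cells were Hdac4 (2.18-fold, 1.05 to 4.79), Smarca2 (1.88-fold, 1.17 to 3.09), Kdm2b (1.79-fold, 0.885 to 3.77), Kdm7a (1.61-fold, 0.868 to 3.05), Chd3 (1.54-fold, 1.24 to 1.93) and Sirt7 (1.53-fold, 1.03 to 2.29). Dnmt1 (1.80-fold, 1.11 to 2.97) and Hdac7 (1.55-fold, 1.06 to 2.29) were higher in CD8sp-like cells. Of 3 genes of dividing cells, Top2a (3.18 against 1.68) and Mki67 (1.11 against 0.736) were also higher in CD8sp-like cells and Cdk1 was lower (0.553 against 0.710). In DPsel-like cells these 3 had 0.842, 0.458 and 0.635. The part of division in the Dnmt1 levels was not tested. With a minimum of 10 steps 17 of 69 members were higher and 6 lower in CD4sp-like cells, against 13.5% and 14% of all genes. After thinning 4 of 31 were higher and 5 lower, against 10.1% and 9.09%. At resolution 1 no cluster was CD8sp-like.

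**Figure D4:**
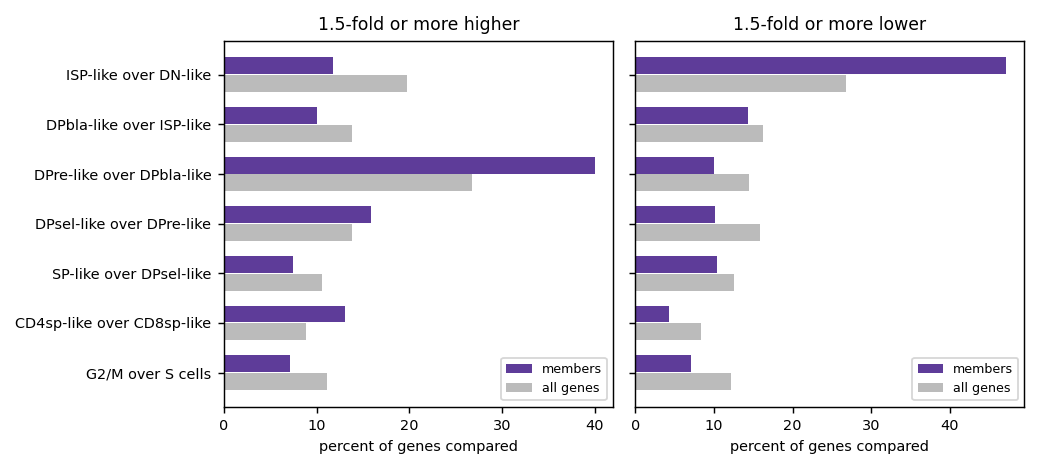
Share of the tested genes that were at least 1.5-fold higher or lower (percent, horizontal axis) in each of 7 comparisons (vertical axis), for the members and for all genes of the table. The members exceed all genes most at 47.1% against 26.8% lower in ISP-like than in DN-like cells and 40.0% against 26.8% higher in DPre-like than in DPbla-like cells.

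Within the dividing classes 201 cells were assigned to S phase and 337 to G2/M from 2 fixed gene sets. Each ISP-like and DPbla-like cell was given the phase with the higher score, so no cell was placed in G1 or left uncalled. The phases differed in class: ISP-like cells made up 68.2% of the S cells and 16.6% of the G2/M cells, so phase and class are mixed in this comparison. In G2/M 5 of 70 members were higher and 5 lower than in S, against 11.1% and 12.2% of all genes. Kmt5a was 1.54-fold higher in G2/M (1.33 to 1.80), with Kdm3a (2.11-fold, 1.36 to 3.39), Kdm4c (2.02-fold, 1.06 to 4.11), Sirt2 (1.51-fold) and Hdac8 (1.51-fold). In S phase Chd3os (3.95-fold, 2.50 to 6.41), Dnmt3b (2.92-fold), Smarca2 (2.31-fold, 1.5 to 3.6), Kat2a (1.65-fold, 1.10 to 2.48) and Tet1 (1.59-fold, 0.860 to 2.95) were higher. Within DPbla-like cells alone 9 of the 63 members with enough steps were higher and 7 lower, against 15.3% and 12.1% of all genes, of which 2 and 2 were among these 10. After thinning 7 of the 34 with enough steps were higher and 6 lower, against 16.0% and 15.1%, of which 2 and 0 were among the 10. After thinning, the log2 ratio of Kdm4c turned to -0.48 and that of Hdac8 to -1.97, and within DPbla-like cells alone that of Kat2a turned to 0.65. Dnmt1 was 2.40 and 2.43 in the dividing classes and was not past 1.5-fold between the phases.

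Other chromatin genes were taken from a list of 71, of which 69 were in the table. In ISP-like over DN-like cells 17 of 67 were higher and 13 lower, against 19.7% and 26.8% of all genes, and all 7 histone chaperones were among the higher. After thinning 13 of 39 were higher and 7 lower, against 29.7% and 20.9%. The largest ratios were those of Suv39h2, a methyltransferase of heterochromatin, at 7.43-fold (1.27 to 300, with 1 step in DN-like cells), Chaf1a, a subunit of the replication-coupled chaperone CAF-1, at 3.95-fold (1.96 to 9.28) and Hells, a remodeler linked to DNA methylation, at 3.87-fold (2.64 to 5.92). Mta3, a NuRD subunit, was 4.19-fold lower (3.39 to 5.17), Mbd1 1.80-fold (1.12 to 2.79) and Jarid2 1.75-fold (1.05 to 2.81). In DPre-like over DPbla-like cells 3 of 68 were higher and 23 lower, against 26.8% and 14.4% of all genes, and after thinning 6 of 60 were higher and 24 lower, against 28.3% and 15.6%. All 7 histone chaperones were lower, led by Asf1b (13.2-fold) and Chaf1a (4.56-fold), and Hells stood at 3.89-fold. Of the 7 partners of Ezh2 in PRC2, 5 were lower there, as was Ezh2. From DN-like to ISP-like cells, where Ezh2 was higher, 2 of the 6 partners with enough steps were higher and 2 lower, against 19.7% and 26.8% of all genes. From DPre-like to DPsel-like cells, where Ezh2 was lower, 2 of the 6 partners with enough steps were higher and 0 lower, against 13.8% and 15.8% of all genes. The 2 were Jarid2 (2.60-fold, 1.88 to 3.63) and Rbbp7 (1.75-fold, 1.29 to 2.39). From DPbla-like to DPre-like cells Ep300, Mta3 and Crebbp were 1.66-fold, 1.65-fold and 1.60-fold higher.

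Some members also varied between the clusters of a class, which were formed without them. In the 3 DPbla-like clusters, with Mki67 above 0 in 50.3%, 61.9% and 45.1% of thinned cells, Ezh2 had a level of 8.60 (8.05 to 9.18), 7.90 (7.19 to 8.66) and 5.02 (4.33 to 5.79). Dnmt1 had 3.32 (2.98 to 3.69), 1.64 (1.33 to 2.01) and 1.14 (0.827 to 1.54) in the same order. Kmt5a had 2.12 (1.85 to 2.41), 2.66 (2.25 to 3.11) and 2.92 (2.40 to 3.52). Ezh2 and Dnmt1 were thus lowest, and Kmt5a highest, in the cluster with the lowest share of Mki67, although the intervals of Kmt5a overlapped, as did those of Dnmt1 in the last 2 clusters. In the 3 DPre-like clusters Mki67 was above 0 in 5.58%, 21.9% and 3.45% of thinned cells. Kdm5b had 1.19 (0.908 to 1.54), 0.507 (0.305 to 0.792) and 1.39 (0.970 to 1.94) there. Smarca4 had 2.49, 0.987 and 2.47, and Hdac7 had 3.32, 2.19 and 4.38. These 3 genes were lowest in the cluster with the most Mki67, and Kmt5a was highest there, at 1.68 (1.29 to 2.15) against 0.384 and 0.716.

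In the scATAC-seq data, 71 of 72 members with a start site had an accessible peak, each 4000 bp wide, within 2 kb of it, as had 98.5% of all genes. A member was counted as for RNA, on counts per 10000 counts in peaks, in the 1 peak whose center lay nearest to a start of the gene. In SP sorted (CD4 and CD8) over DP sorted cells 3 of 29 members were higher (10.3%) and 4 lower (13.8%), against 13.8% higher and 15.4% lower over all genes. In DN sorted over DP sorted cells 7 of 35 were higher (20.0%) and 4 lower (11.4%), against 14.7% and 15.3%. The promoter of Hdac7 had a level of 0.289 in DN, 0.460 in DP, 0.0896 in CD4 and 0.243 in CD8 sorted cells, 2.85-fold lower in SP than in DP cells (1.44 to 5.71), while its RNA was highest in DPre-like cells. Sirt1 was 2.35-fold lower in SP than in DP sorted cells (1.09 to 5.10, on 15 and 16 counts). Sirt3 was 2.65-fold lower in DN than in DP sorted cells (1.21 to 5.86, on 14 and 16 counts). Hdac7, Sirt1, Sirt3 and Kdm3a were named because their intervals did not include 1. The share of all genes with such an interval was not computed. Kdm3a was 2.85-fold higher in DN than in DP sorted cells (2.04 to 4.08). Of its 264 counts in DN cells, 213 came from the cells with the lowest of 3 ranges of numbers in the cell labels, where it reached 3.80 against 0.744 in DP cells. In the middle range the levels were 0.740 and 0.940 and in the highest range 1.05 and 0.558. What these numbers mark is not stated, and their part in the result was not tested. In that nearest peak Chd3, Hdac4, Kdm5b, Chd7 and Kmt5a each had at most 10 counts over all sorts, too few to set beside their RNA. With all peaks within 2 kb summed, 65 members had enough counts in each comparison. The median log2 ratio was then 0.02 in SP over DP sorted cells and 0.05 in DN over DP sorted cells, against -0.03 and 0.01 over all genes.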

How the data were processed

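Expression was deposited as log2 values, which the authors made by alignment with Cell Ranger 1.3.1 (GRCm38.p5 is among the builds of the submitters' processing notes), filters on cells and genes, and quantile normalization. Because counts of molecules were not used here, each value's rank in its cell, ties counted once (a step), stood in for one, which understates abundant genes. For scATAC-seq the authors removed duplicates, called peaks on merged cells and deposited raw counts of each cell in each peak. Its build was taken as GRCm38 because 98.5% of genes had a peak within 2 kb of a GENCODE vM21 start and 48.1% did when starts were shifted by 100000 bp. Of its columns 542 were used, and 1446, of total thymocytes or of no stated group, were not. No barcode is shared between libraries, as there was 1 expression library, and doublets were not called.

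Clustering used Seurat 5.3.0 in R 4.3.3 (genes with a mean of 0.025 to 3 and a dispersion of at least 0.5, 20 principal components, 30 neighbors, resolution 2), without the members and the other chromatin genes. Clusters were named by the largest mean of marker z scores, and the names ISP-like and DPbla-like were open only to clusters in which 50% or more of the cells, not thinned, had Mki67. A margin of 0.15 over the next class was added after the scores were seen, and it left 2 clusters unnamed. Intervals were computed with scipy 1.17.1 in Python 3.11.15 (Poisson for levels, binomial for shares, conditional binomial for ratios) and cover counting error only. The counting rule was 1.5-fold with at least 30 steps or counts. Its error rate between classes of unequal depth is not known. Named members were the 5 largest past 1.5-fold in each direction of a comparison, the highest of each family and a list of members, with the 3 most like patterns for selected members and the 3 largest other chromatin genes for the 2 comparisons around division. The clusters, Mki67 shares and Ccr7 levels within classes, the promoters shown and the scATAC-seq members with intervals apart from 1 were chosen after their values were seen. The members and lists were chosen with earlier results of these data known.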

Additional observations from a re-analysis of the deposited data

How the results depend on the processing

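Of the log2 ratios of named members under an alternative, 2413 kept within their main spread and direction, 165 moved, 54 of them by thinning and 87 by taking the difference of mean log2 values, and 6 reversed, and of the counts of members 107 stayed within 1.5 times and 33 did not. Of the counts of other chromatin genes 102 stayed within 1.5 times and 38 did not. For each count that did not the cause was not tested. A stricter fold can only lower a count. Thinning left fewer genes with enough steps and also moved medians, as from -0.44 to -0.07 over the members in ISP-like over DN-like cells. In ISP-like over DN-like cells, 8 members higher became 5 with the members kept in clustering, 5 with 20 neighbors, 5 after thinning and 3 at 2-fold, and 32 lower became 7 after thinning and 16 at 2-fold. In DPbla-like over ISP-like cells, 7 higher became 3 at resolution 1, 3 with no margin in naming and 0 at 2-fold, and 10 lower became 4 after thinning and 3 at 2-fold. In DPre-like over DPbla-like cells, 28 higher became 10 at 2-fold. In DPsel-like over DPre-like cells, 11 higher became 7 with 30 principal components, 3 after thinning and 2 at 2-fold, and 7 lower became 12 with 30 principal components and 1 at 2-fold. In SP-like over DPsel-like cells, 5 higher became 8 with the low-gene denominator and 1 at 2-fold, and 7 lower became 1 at 2-fold. In CD4sp-like over CD8sp-like cells, 6 higher became 17 with a minimum of 10 steps and 1 at 2-fold, and 2 lower became 1 with 20 neighbors, 1 with 5% of the cells left out, 1 with no margin, 5 after thinning, 6 with a minimum of 10 steps and 0 at 2-fold. In G2/M over S cells, 5 higher became 2 at 2-fold and 9 in DPbla-like cells only, and 5 lower became 8 with the members kept in clustering, 9 with 20 neighbors and 3 at 2-fold. The alternatives without a margin and with DPbla-like cells only were chosen after seeing the data. Reversed after thinning were Ezh1 (log2 ratio 0.75) and Hdac8 (-2.84) in DPbla-like over ISP-like cells and Hdac8 (-1.97) and Kdm4c (-0.48) in G2/M over S cells, Kmt5a in DPsel-like over DPre-like cells with 30 principal components (0.17), and Kat2a in G2/M over S cells with DPbla-like cells only (0.65). At resolution 1 no cluster was CD8sp-like, so CD4sp-like over CD8sp-like cells gave no value. The 7 medians of promoter signal with a value stayed within their spread. With 1 library, counting error and depth limit what can be told, and no spread between animals is known.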

Other observations

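The 31 NCL-like cells, which expressed markers of innate-like lymphocytes, had the highest level of Chd7 of all named classes, at 1.57 (0.835 to 2.68) from 13 steps, and a level of 3.26 (2.15 to 4.74) for Chd3 and 4.10 (2.84 to 5.73) for Smarcd1. Ezh2 was at 0.724 (0.266 to 1.57) and Kdm6b at 0.241 (0.0292 to 0.871) there. In the 37 APC-like cells Dnmt1 was at 0.242 (0.0500 to 0.709), Chd3 at 0.566 (0.227 to 1.17) and Kdm2a at 1.54 (0.924 to 2.40). These classes rest on few cells and were compared with no other by a test.

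The unnamed cluster of 114 cells, with Mki67 above 0 in 21.9% of cells thinned to 1300 steps, had a level of 5.23 (4.63 to 5.90) for Ezh2 and 2.34 (1.94 to 2.80) for Dnmt1. The unnamed cluster of 68 cells, in which Ikzf2 was among the leading genes, had 3.78 (2.91 to 4.83) for Chd3, 0.650 (0.324 to 1.16) for Chd7 and 1.65 (1.10 to 2.39) for Kdm5b.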
